A study of Homo sapiens with 8 samples.

Results

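The 10 genes described here encode enzymes that remove reactive oxygen species or supply their reducing power, and the 2 subunits of ferritin, the protein shell that stores iron: SOD1, SOD2, HMOX1, NQO1, GCLM, TXNRD1, SRXN1, FTH1, FTL and GPX1. They were chosen by symbol and matched to the Ensembl identifiers of GENCODE release 29, and they make up 10 of the 58735 genes measured and 10 of the 16528 genes with enough reads to be tested. The cells were U2OS, a human osteosarcoma line, which carried either a control shRNA (control cells, genotype WT in the labels) or an shRNA against WSB2 (KD cells), and which received either no stimulus or TNF-α for 5 h. Each of these 4 groups has 2 RNA-seq libraries, and the study asked with them what loss of WSB2, a substrate receptor of a cullin ubiquitin ligase, does to TNF-α-induced transcription. All groups are cultures of 1 cell line with an integrated shRNA, the WSB2 shRNA behind these libraries and the concentration of TNF-α are not given in the sources used here, and nothing states that the 2 libraries of a group came from separate cultures. The p-values below therefore measure only the spread between these libraries, which may be technical.

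Superoxide made by the respiratory chain and by oxidases is turned into hydrogen peroxide by superoxide dismutases, SOD1 in the cytosol and SOD2 in mitochondria, and the peroxide is then reduced by glutathione peroxidases and by the thioredoxin and peroxiredoxin system. Many of these genes are targets of NRF2, a transcription factor that KEAP1 marks for degradation and that binds the antioxidant response element together with small MAF proteins, while BACH1 represses some of the same sites. SOD2 is also a well-known target of NF-κB, which TNF-α activates. Ferritin is governed largely in translation: when iron is scarce, the proteins IRP1 and IRP2 bind a hairpin in its mRNA, the iron-responsive element, and hold back its synthesis, so that the amount of ferritin mRNA is only a portion of the control of ferritin.

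The sequences below show these features in the members themselves. The iron-responsive elements of both ferritin genes are shown because they set FTH1 and FTL apart from the other 8 members, whose annotated transcripts held no match to the hairpin pattern searched (a bulged C, a stem of 5 pairs and the loop CAGTG plus 1 base). Each stretch below has 29 bases, 5′ to 3′ on the strand of the gene, is taken from the GENCODE 29 transcripts on GRCh38, lies in the 5′ UTR and has the 6 bases of the loop in capitals.
FTH1, chr11:61967574-61967602, minus strand: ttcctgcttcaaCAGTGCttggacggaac
FTL, chr19:48965335-48965363, plus strand: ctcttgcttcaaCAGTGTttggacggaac
The elements of the 2 subunits had 26 of 29 bases the same. Among the other iron genes searched, SLC40A1, the iron exporter, had 1 match in its 5′ UTR, and TFRC, the transferrin receptor that brings iron into the cell, had 4 in its 3′ UTR.

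The core of the antioxidant response element, TGACNNNGC on either strand, was looked for in RefSeq promoter windows of 300 bases, from 250 before to 50 after each start site on GRCh38.p14. Windows were at hand for 7 of the 10 members, and those of GCLM and TXNRD1, 2 of the 7, held the core, which is shown here in capitals with the 8 bases on each side.
GCLM, chr1:93909448-93909472, gene on the minus strand: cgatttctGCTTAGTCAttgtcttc
TXNRD1, first start site, chr12:104215672-104215696, plus strand: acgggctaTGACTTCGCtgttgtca
TXNRD1, first start site, chr12:104215763-104215787, plus strand: gtccttcgGCTCCGTCAgttcccac
TXNRD1, second start site, chr12:104286922-104286946, plus strand: ggatttctGCTTTGTCAttctgact
The match in GCLM began 34 bases upstream of the start site, and those in TXNRD1 began 99, 8 and 102 bases upstream of theirs. Of all 35116 windows of this length, 13.35% held the core, so a match is a description of these letters and not evidence of a bound site. The NF-κB consensus occurred in 5.909% of all windows and in 0 of the 11 windows of the 7 members, of which 4 lie at start sites of SOD2, which says only that its letters are not in those windows.

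Before the results, 2 of the libraries have to be set apart. Reads assigned to genes numbered between 15601098 and 18677023 per library, and all 10 members were measured with at least 136 reads in every library. WSB2, the targeted gene, had a mean of 27.9 ± 0.198 FPKM (SD over 2 libraries) in control and 8.45 ± 0.0955 FPKM in KD cells without TNF-α, and of 25.1 ± 0.196 and 9.09 ± 0.128 FPKM with it. Every library thus matched the shRNA of its label, while WSB2 cannot check the TNF-α part. Both unstimulated KD libraries differed from the other 6 in ways that reach far beyond the members: their mitochondrial share of reads was 4.10 and 4.42%, compared with 1.11 to 2.03% elsewhere. Their read-weighted GC content was 49.4 and 49.9%, compared with 52.5 to 53.2%, and they detected 26225 and 26397 genes, compared with 22072 to 22957. The authors' scaling divided these 2 libraries by 1.21 times their read totals and the others by 0.925 to 1.03 times theirs. Of 9 mesenchymal and bone markers, 7 were at 10 FPKM or more in every library and RUNX2 was at 1.29 to 2.94 FPKM, whereas COL1A2 stayed between 0.00929 and 0.0934 FPKM. Of 12 markers of blood, epithelial, endothelial and liver cells, 10 were below 1 FPKM throughout, and the keratins KRT8 and KRT18, at 74.3 to 362.5 FPKM, were the exceptions. The summed level of these 12 was 426.8 to 549.7 FPKM in unstimulated control cells, 201.5 to 217.4 in unstimulated KD cells and 472.6 to 494.3 in the 4 stimulated libraries, with KRT8 and KRT18 lower by log2 values of -1.25 and -1.13 in unstimulated KD cells. The sum of the 9 mesenchymal and bone markers was lower there as well. It was 2566 to 3367 FPKM in unstimulated control cells, 1427 to 1564 in unstimulated KD cells and 2964 to 3151 in the stimulated libraries. LGALS1 weighed most in this sum, with means of 1863 FPKM in unstimulated control and 664 FPKM in unstimulated KD cells. By gene, 5 of the 9 were lower in unstimulated KD cells and 2 higher (limma, adjusted p under 0.05), beside 30.2% and 29.8% of all genes. The mean of FN1 rose from 86.9 to 137.1 FPKM, and those of RUNX2 and CD44 rose too. The part of these shifts in the members' values was not tested.

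In unstimulated control cells the members spanned a wide range of levels, led by the ferritins. On the FPKM scale, which divides reads by gene length and library size, FTL averaged 3854 ± 697.8 (SD, n = 2), FTH1 596.9 ± 92.6 and GPX1, the cytosolic selenoenzyme that reduces peroxide with glutathione, 333.8 ± 88.2. SOD1 followed at 117.9 ± 24.7, NQO1 at 82.3 ± 10.7 and TXNRD1 at 43.0 ± 6.85 FPKM. HMOX1 stood at 26.7 ± 2.74, GCLM at 10.2 ± 1.07, SRXN1 at 4.36 ± 0.466 and SOD2 last at 2.30 ± 0.290 FPKM. No 2 neighbours in this order overlapped between their libraries in this group. In unstimulated KD cells TXNRD1 stood above NQO1, and the libraries of HMOX1 and GCLM and those of SRXN1 and SOD2 overlapped. After TNF-α SOD2 was no longer last in either cell type: in control cells its libraries overlapped those of GCLM, and in KD cells it stood between GCLM and SRXN1.

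Some of these levels carry a limit from the annotation. The length used for SOD2 is 16493 exon bases, the longest of the members, so that its 517 to 3253 reads per library give a low FPKM, while FTL has only 878 exon bases. The symbol SOD2 also belongs to a second identifier, ENSG00000285441, which shares 845 exon bases with the one used (ENSG00000112096) and had 3 reads in all 8 libraries together. WTAP, on the opposite strand, shares 298 exon bases with SOD2 and BEST1 shares 1267 of the 2030 exon bases of FTH1, and since the strand of counting is not given in the sources used here, reads from these stretches cannot be told apart. SRXN1 shares 2292 of its 2698 exon bases with AL121758.1, a gene model with 11 reads, so how reads were divided between the 2 is uncertain. Processed pseudogenes close to the ferritin and GPX1 sequences took few reads: 1324 over 14 FTH1 copies with reads, or 0.932% of the reads of FTH1, 229 for FTL and 631 for GPX1P1, 1.16% of those of GPX1. GPX1 is listed as a polymorphic pseudogene in this annotation although the gene makes a functional enzyme.

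**Figure D1:**
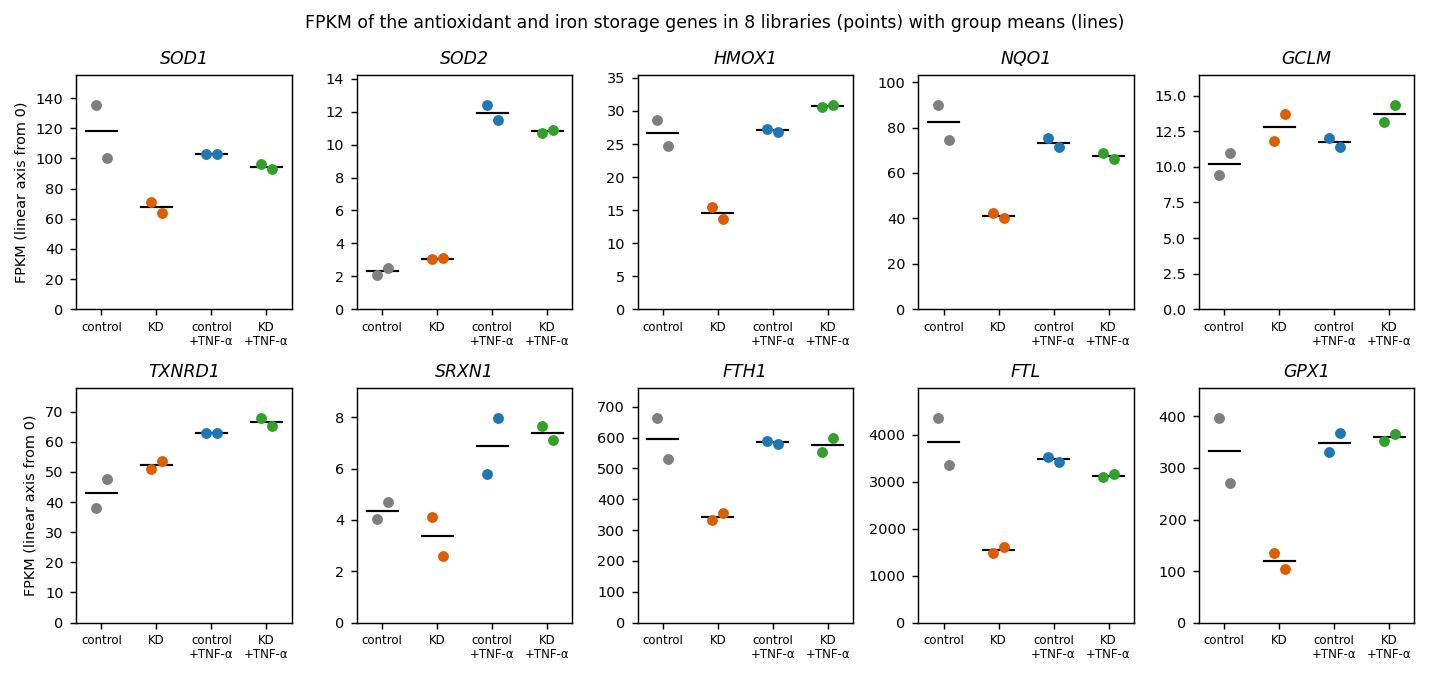
FPKM (vertical axes, linear and starting at 0) of the 10 genes in each of 8 libraries (points), with the mean of the 2 libraries of a group as a line, for control and KD cells without and with TNF-α. SOD2 rises from 2.09 to 3.12 FPKM without TNF-α to 10.7 to 12.4 FPKM with it, while SOD1, HMOX1, NQO1, FTH1, FTL and GPX1 are lowest in the 2 unstimulated KD libraries.

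In control cells the member with the largest TNF-α response was SOD2, the mitochondrial superoxide dismutase (chr6:159669057-159745186, minus strand). Its level was 2.09 and 2.50 FPKM in the unstimulated control libraries and 12.4 and 11.5 FPKM after 5 h of TNF-α, with no overlap. The means differed 5.197-fold, and on the log2(FPKM + 1) scale, on which all fold changes here were tested, the rise was 1.97 (SE 0.0979, limma, Benjamini-Hochberg adjusted p = 4.0e-05). Of the 10 members, 2 were called higher at an adjusted p under 0.05 and 0 lower, against 4.24% of all genes tested that were called in either direction and 3.1% called higher. In bulk libraries, more cells that express a gene and more of its RNA per cell cannot be told apart. Under the study's own thresholds, a P under 0.05 and a log2 fold change beyond 1, SOD2 alone of the 10 was called, against 1.1% of all genes in either direction and 0.889% higher. The SOD2 rise was called under each of 19 other settings of the analysis, with log2 values between 1.88 and 2.38.

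The other gene called was TXNRD1, the cytosolic thioredoxin reductase, a selenoprotein that recharges thioredoxin with NADPH (chr12:104215779-104350305, plus strand). It stood at 38.1 and 47.8 FPKM in unstimulated control cells and at 63.0 and 63.1 FPKM with TNF-α, a log2 difference of 0.55 (SE 0.108, limma, adjusted p = 0.0331). The unstimulated libraries lay apart from each other but both below the stimulated ones. This call was kept in 9 of 19 other settings and in 2 of the 8 fits that each left out 1 library, where the log2 value ran from 0.39 to 0.71, so its direction held and its place past the threshold did not.

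SRXN1, sulfiredoxin, which repairs over-oxidised peroxiredoxins, moved by a like amount with a wider spread: 4.03 and 4.69 FPKM without and 5.78 and 7.96 FPKM with TNF-α in control cells. Its log2 difference of 0.54 had an SE of 0.192 and did not pass the adjustment (limma, adjusted p = 0.198). GCLM, the modifier subunit of the enzyme that makes the first step of glutathione synthesis, was at 9.44 and 10.9 FPKM without and at 12.04 and 11.4 FPKM with TNF-α (log2 difference 0.19, adjusted p = 0.415). None of the remaining 6 genes differed by more than 0.18 on the log2 scale in control cells. The intervals still leave room for sizeable differences in some: that of FTL ran from -0.65 to 0.37 and that of GPX1 from -0.37 to 0.54, whereas HMOX1, the inducible haem oxygenase that breaks haem down to iron, biliverdin and carbon monoxide, was held between -0.19 and 0.25.

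The unstimulated control libraries set the limit here, since they were less alike than any other pair, with a chi-square per gene of 30.1 against 2.45 to 7.23. FTL, for example, stood at 4347 and 3361 FPKM in them and at 3533 and 3413 FPKM in the stimulated control libraries, so that the stimulated pair lay inside the unstimulated one. The same held for SOD1, with 135.4 and 100.5 FPKM without and 102.8 and 103.2 FPKM with TNF-α, and for FTH1, HMOX1 and GPX1. With the second unstimulated control library left out, SOD1 and NQO1 were called lower with TNF-α (log2 -0.39 and -0.29, adjusted p = 0.0233 and 0.0399), and with the first left out the SOD1 value was 0.04.

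**Figure D2:**
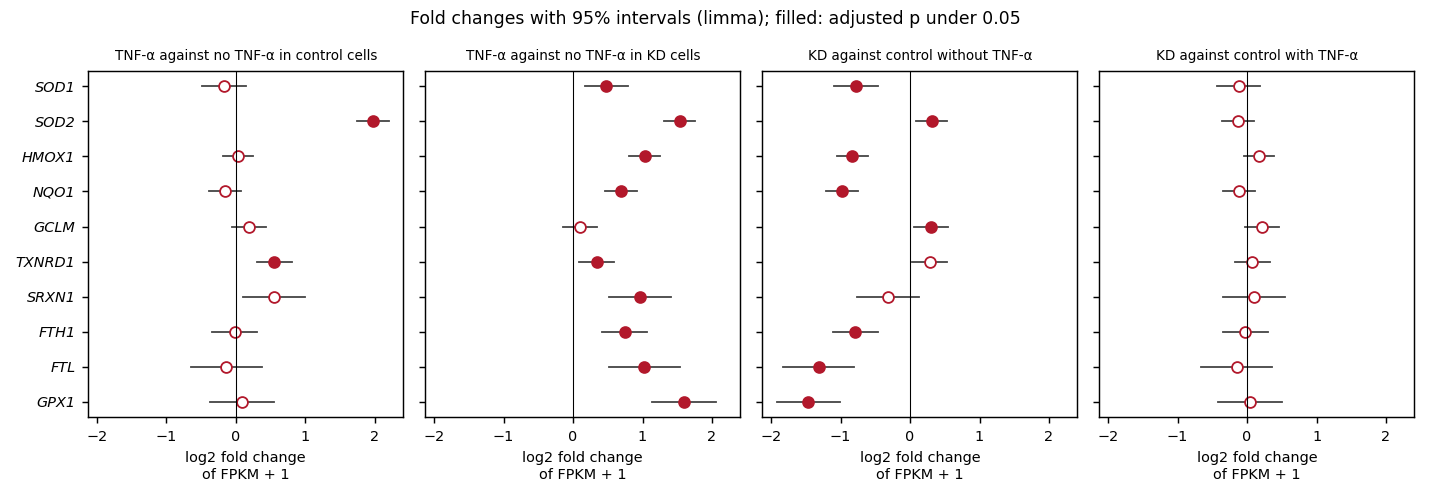
Log2 fold changes of FPKM + 1 (horizontal axes) of the 10 genes in 4 comparisons, with the 95% intervals of the limma fit as lines and filled points for an adjusted p under 0.05. With TNF-α, all 10 KD against control points are open and lie within 0.21 of 0, whereas without TNF-α 8 of 10 are filled.

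Without TNF-α, KD and control cells differed in most of the members. Of the 10 genes, 6 were called lower in KD cells (SOD1, HMOX1, NQO1, FTH1, FTL and GPX1), 2 were called higher (SOD2 and GCLM), and TXNRD1 and SRXN1 did not pass. This count has to be read against the whole table, in which 60.1% of genes were called, 30.2% lower and 29.8% higher, between the same libraries. The median log2 difference of the members was -0.78, beside 0.00 over all genes tested, a value that the authors' scaling by median ratios keeps near 0. With libraries scaled to their read totals the medians were -0.50 for the members and 0.13 for all genes. Under the study's thresholds FTL and GPX1 were called lower, against 11.9% of all genes in either direction and 5.1% lower.

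Both ferritin subunits fell, the light chain further than the heavy chain. FTL (chr19:48965301-48966878, plus strand), the subunit that helps the iron core form, went from 4347 and 3361 FPKM in control cells to 1475 and 1601 FPKM in KD cells. FTH1 (chr11:61959718-61967660, minus strand), the subunit with the ferroxidase activity, went from 662.4 and 531.4 to 331.7 and 355.5 FPKM. For neither gene did the groups overlap. FTL fell by 1.31 on the log2 scale (SE 0.220, limma, adjusted p = 0.00145), and FTH1 fell by 0.79 (SE 0.139, adjusted p = 0.00186).

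Because scaling cancels in a ratio within 1 library, the balance of the 2 ferritin mRNAs can be given without it. The level of this ratio carries the limit given above for FTH1, which shares exon bases with BEST1. The ratio of FTL to FTH1 in FPKM was 6.56 and 6.32 in unstimulated control libraries and 4.45 and 4.50 in unstimulated KD libraries. With TNF-α it was 5.98 and 5.88 in control and 5.59 and 5.28 in KD libraries. The unstimulated KD libraries thus had the lowest ratios of the 8, which shows unequal change of the 2 mRNAs and not which of them moved. A correction of each library for GC content and gene length, described below, narrowed the gap: the log2 ratio was then 2.27 and 2.35 in unstimulated KD libraries against 2.63 and 2.65 in unstimulated control libraries and 2.36 to 2.54 in the 4 stimulated ones.

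Of the enzymes, GPX1 (chr3:49357171-49358600, minus strand) had the largest difference of the 10 members under the authors' scaling, though not after the GC and length correction, where NQO1 and FTL moved further. It stood at 396.2 and 271.4 FPKM in control cells and at 135.4 and 103.3 FPKM in KD cells, and it fell by 1.46 on the log2 scale (SE 0.196, limma, adjusted p = 0.00055). NQO1 (chr16:69706996-69726951, minus strand), a quinone reductase and a much used NRF2 target, stood at 89.9 and 74.7 FPKM in control and at 42.2 and 40.3 FPKM in KD cells, and fell by 0.97 (SE 0.0997, adjusted p = 0.00023). Both genes were separated between the groups by a gap wider than the distance between the libraries of either group.

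HMOX1 (chr22:35380361-35394214, plus strand) and SOD1 (chr21:31659622-31668931, plus strand) fell as well. HMOX1 was at 28.6 and 24.7 FPKM in control and at 15.5 and 13.6 FPKM in KD cells, and fell by 0.83 (SE 0.0945, limma, adjusted p = 0.00031). SOD1, the copper and zinc superoxide dismutase, was at 135.4 and 100.5 FPKM in control and at 71.0 and 64.1 FPKM in KD cells, and fell by 0.78 (SE 0.135, adjusted p = 0.0017). The falls of all 6 genes were called in each of 17 other settings.

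The 4 other members were not called lower. SOD2 was slightly higher in unstimulated KD cells, 3.04 and 3.12 FPKM against 2.09 and 2.50 (log2 0.31, limma, adjusted p = 0.0256), and so was GCLM (chr1:93885205-93909456, minus strand), with 11.8 and 13.7 against 9.44 and 10.9 FPKM (log2 0.30, adjusted p = 0.0391), but both turned to called falls, -0.33 and -0.34, under the correction for GC content and length. With 1 library left out, the SOD2 rise was called in 3 and the GCLM rise in 2 of 8 fits. TXNRD1 stood at 50.9 and 53.6 against 38.1 and 47.8 FPKM (log2 0.28, adjusted p = 0.051). SRXN1 (chr20:646615-653370, minus strand) stood at 4.13 and 2.61 against 4.03 and 4.69 FPKM, with overlapping groups (log2 -0.31, interval -0.76 to 0.13, adjusted p = 0.194), and was called lower in 2 of 17 other settings.

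Base composition moved with these differences and so did the scaling. Across 16520 genes, Spearman's rho between the GC content of a gene and its log2 difference between unstimulated KD and control cells was -0.68, a description over genes that share 4 libraries, against 0.03 for the same comparison with TNF-α. GC content was that of the longest annotated transcript of a gene. The 6 members called lower have GC contents of 46.0 to 64.2%, with GPX1 the highest at 64.2%, and the 2 called higher have 41.7% (SOD2) and 37.3% (GCLM). When each library was corrected by splines on GC content and length, 8 members were called lower and 0 higher, beside 4664 lower and 3969 higher of 16520 genes. GPX1 then moved to -0.82, FTL to -0.88, FTH1 to -0.55, SOD1 to -0.40 and HMOX1 to -0.29, while NQO1, at 46.0% GC, stayed at -0.97. Scaling the libraries to their read totals put the median of all genes at 0.13 and gave 6 members lower and 3 higher. Of all 16528 genes tested, 3456 were then lower and 6515 higher. Upper-quartile scaling put that median at -0.12 and gave 7 members lower and 0 higher, beside 6273 lower and 3805 higher of all 16528 genes. The 6 falls were thus called under every scaling tried, by sizes that depended on it, and the part of RNA quality or library preparation in them was not tested.

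**Figure D3:**
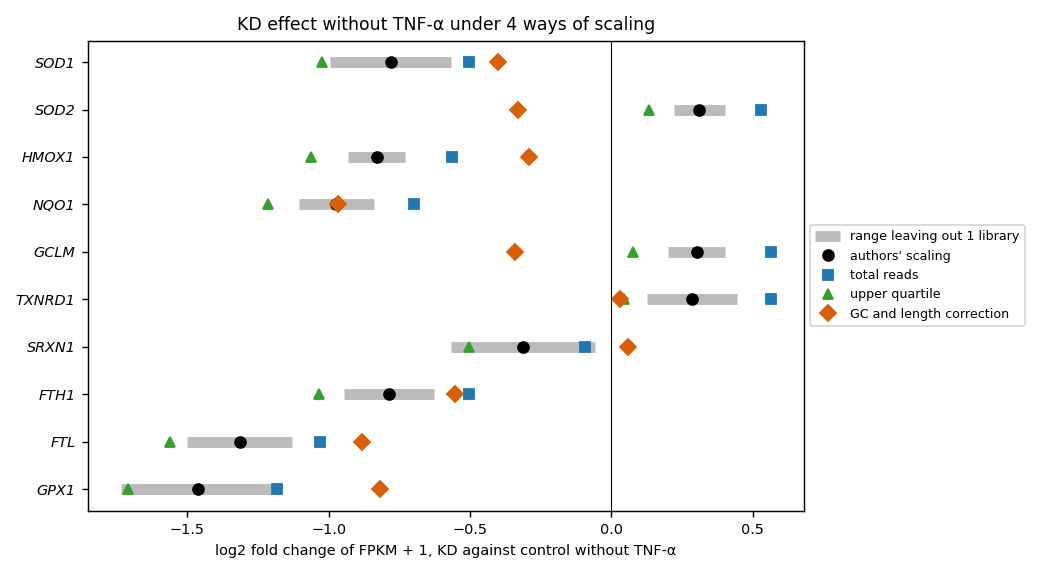
Log2 difference of FPKM + 1 between unstimulated KD and control cells (horizontal axis) for each gene under the authors' scaling (black), read totals (blue), upper quartiles (green) and a correction for GC content and length (orange), with grey bars for the range over 8 fits that each leave out 1 library. SOD1, HMOX1, NQO1, FTH1, FTL and GPX1 lie below 0 under all 4, and SOD2 and GCLM change side under the orange correction.

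With TNF-α, the same comparison of KD and control cells called no member. Of the 10 members 0 were called by limma, 0 had an unadjusted p under 0.05 and 0 passed the study's thresholds, against 0.115% of all genes called at an adjusted p under 0.05 and 0.109% by the study's thresholds. These shares come from the limma fit. The study, which used edgeR, reported many more genes past its thresholds in this comparison. FTL stood at 3533 and 3413 FPKM in control and at 3099.9 and 3157 FPKM in KD cells. GPX1 stood at 330.2 and 367.7 against 351.5 and 366.9 FPKM, and FTH1 at 590.7 and 580.3 against 555.0 and 598.0 FPKM, with overlapping groups in both.

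The other enzymes were as close in level. HMOX1, at 27.3 and 26.9 FPKM in control and 30.6 and 30.9 FPKM in KD cells, and GCLM, at 12.04 and 11.4 against 13.1 and 14.3 FPKM, had the largest positive differences, 0.17 and 0.21 on the log2 scale (limma, adjusted p = 0.732 and 0.691). For both genes the KD libraries lay above the control libraries, and the interval of GCLM, -0.04 to 0.46, holds the 0.30 found without TNF-α. SOD2 was at 12.4 and 11.5 FPKM in control and 10.7 and 10.9 FPKM in KD cells, a difference of -0.13 with an interval from -0.36 to 0.10. For HMOX1 the interval, -0.04 to 0.39, does not reach the fall of 0.83 seen without TNF-α, and for FTL, -0.66 to 0.36, and GPX1, -0.41 to 0.50, it does not reach theirs. With the 2 unstimulated KD libraries left out of the fit, 0 members were called as well, and a fit of only these 4 libraries left 3 members with an unadjusted p under 0.05 and 0 called.

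In KD cells, 9 of the 10 members were called higher with TNF-α, against 62.5% of all genes called in either direction and 31.1% called higher. This comparison shares its unstimulated KD libraries with that of KD and control cells without TNF-α, and its stimulated ones with that of the same cells with TNF-α. SOD2 rose from 3.04 and 3.12 to 10.7 and 10.9 FPKM, 3.51-fold between the means and 1.53 on the log2 scale (SE 0.0979, limma, adjusted p = 4.1e-05). It was called under each of 17 other settings, between 1.23 and 2.09. GPX1 rose from 135.4 and 103.3 to 351.5 and 366.9 FPKM (log2 1.59), HMOX1 from 15.5 and 13.6 to 30.6 and 30.9 FPKM (1.03) and FTL from 1475 and 1601 to 3099.9 and 3157 FPKM (1.03).

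Of the other genes called, FTH1 rose by 0.74, NQO1 by 0.70, SRXN1 by 0.96, SOD1 by 0.48 and TXNRD1 by 0.34 on the log2 scale (limma, adjusted p between 0.0006 and 0.025). SRXN1, a low gene whose log2 value the pseudocount shrinks, differed 2.19-fold between the means, beside 2.11-fold for HMOX1. GCLM did not pass, at 11.8 and 13.7 FPKM without and 13.1 and 14.3 FPKM with TNF-α (log2 0.10, adjusted p = 0.445). Under the study's thresholds SOD2, HMOX1, FTL and GPX1 were called higher, against 14.4% of all genes in either direction and 7.85% higher. With the libraries scaled to read totals 7 members were called higher, beside 3309 of all 16528 genes, and TXNRD1 (log2 -0.03) and SOD1 both lost their calls. SOD1 also lost its call after the GC and length correction (log2 0.09), under which GCLM was called higher at 0.74. With 1 library left out, TXNRD1 was called in 4 and SOD1 in 5 of 8 fits, and each was called in 11 of 17 other settings in all.

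Whether the TNF-α effect differed between the cell types was tested by the interaction of KD and TNF-α. It was called for 7 members, against 46.1% of all genes, 23.8% higher and 22.3% lower: higher in KD cells for SOD1 (0.66), HMOX1 (1.01), NQO1 (0.85), FTH1 (0.76), FTL (1.16) and GPX1 (1.51), and lower for SOD2 (-0.44, SE 0.138, limma, adjusted p = 0.0333). HMOX1, FTL and GPX1 passed the study's thresholds, against 12.5% of all genes in either direction and 5.23% higher. The smaller SOD2 response in KD cells depended on the correction for GC content and length, after which the interaction was 0.21 and not called (adjusted p = 0.165), and it was called in 2 of 8 fits that left out 1 library. HMOX1, NQO1 and GPX1 were called in all 16 other settings, whereas SOD1, FTH1 and FTL were called in 3, 3 and 2 of the 8 fits with a library left out. The ratio of SOD2 to SOD1, which scaling cannot change, was 0.0154 and 0.0249 in unstimulated control, 0.0429 and 0.0487 in unstimulated KD, 0.121 and 0.111 in stimulated control and 0.112 and 0.117 in stimulated KD libraries, so that both cell types had higher ratios with TNF-α than without. After the GC and length correction the log2 ratio was -4.98 and -4.75 in unstimulated control and -4.80 in both unstimulated KD libraries, which then lay within the control pair, and -2.83 to -2.76 in the stimulated ones.

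The genes around the members in the same pathways were taken from lists by function. Of 28 tested genes of the glutathione and thioredoxin system, TNF-α in control cells called 0, with a list median of -0.07 on the log2 scale beside 0.01 over all genes. Of 17 other NRF2 targets it called 1 higher, SQSTM1, the autophagy receptor p62 (log2 0.93, limma, adjusted p = 0.00128), and 1 lower, IDH1, an NADPH-producing isocitrate dehydrogenase (-0.53, adjusted p = 0.0178). Of 10 regulators of the NRF2 pathway it called MAFF, a small MAF protein, which rose by 1.58 (adjusted p = 0.00043), and NFE2L2, the gene of NRF2, stood at 3.75 and 4.84 FPKM without and 6.10 and 5.88 with TNF-α (log2 0.41, adjusted p = 0.147). Of 5 tested NADPH oxidase subunits 2 were called higher, among them NCF4, at under 1 FPKM (0.34). That count was 0 with no filter on low reads and in a fit of only the 4 libraries. It was 1 with a pseudocount of 0.1, upper-quartile factors, the voom fit or the GC and length correction. The counts of these 4 lists stand beside 4.24% of all genes called and 3.1% called higher.

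Without TNF-α, KD cells showed many calls in these lists, to be read beside 30.2% of all genes called lower and 29.8% called higher. In the glutathione and thioredoxin system 17 of 28 tested genes were called lower and 6 higher, with a list median of -0.55, and the largest falls were those of GPX4, which reduces lipid peroxides (log2 -1.57), PRDX5, a peroxiredoxin (-1.43), and GSTP1, a glutathione transferase (-1.43). The largest rises were those of SLC7A11, the cystine importer (1.47), GPX8 (0.85) and SESN1 (0.60). Among other NRF2 targets 10 of 17 were lower, among them EPHX1, an epoxide hydrolase (-1.21), and TALDO1, an enzyme of the pentose phosphate pathway (-1.11), and 2 were higher, UGDH (0.30) and ABCC2 (0.23). After the correction for GC content and length the counts of the 2 lists were 15 lower and 3 higher, and 11 lower and 0 higher. Of all 16520 genes in that fit, 4664 were lower and 3969 higher.

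The regulators moved in both directions between unstimulated KD and control cells. NFE2L2 rose from 3.75 and 4.84 to 10.1 and 12.1 FPKM (log2 1.19), BACH1 from 1.30 and 2.01 to 6.32 and 7.06 FPKM (1.55), and CUL3, the scaffold of the ligase that holds KEAP1, by 0.83. KEAP1 fell from 38.1 and 33.4 to 18.0 and 16.2 FPKM (log2 -1.02), RBX1, of the same ligase, by 0.83 and MAFK by 0.73. All 10 regulators were called, 4 higher and 6 lower, beside 60.1% of all genes. After the correction for GC content and length 4 were called, 2 in each direction, beside 4664 lower and 3969 higher of 16520 genes. The list median went from -0.41 to -0.03 with it. The gene values above are from the fit without this correction, and which genes kept their calls is not reported here. With TNF-α, 0 genes of these 5 lists were called between KD and control cells in the analysis as reported (MAFF log2 0.61, limma, adjusted p = 0.17). Of all genes tested only 0.115% were called there, so a count of 0 says little about the lists. MAFF was called higher after that correction and in a fit of only the 4 libraries compared.

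Of 22 tested iron and haem genes, 7 were higher and 8 lower in unstimulated KD cells, beside 29.8% and 30.2% of all genes, and the list median was -0.09. After the GC and length correction 6 were higher and 11 lower, with a median of -0.22, beside 3969 higher and 4664 lower of 16520 genes. TFRC stood at 9.63 and 12.8 FPKM in control and 21.9 and 23.4 FPKM in KD cells (log2 0.97, limma, adjusted p = 0.00042), IREB2, the gene of IRP2, rose by 1.11, and SLC40A1 went from 2.43 and 2.70 to 4.73 and 4.61 FPKM (0.67). NCOA4, the receptor that carries ferritin to the lysosome, went from 28.05 and 32.5 to 45.7 and 49.5 FPKM (0.64). The largest falls were those of BLVRB (-1.32), HMOX2, the constitutive haem oxygenase (-0.86), and BLVRA (-0.68), the last step of haem breakdown. The ratio of FTH1 to TFRC was 68.8 and 41.7 in unstimulated control libraries, 15.1 and 15.2 in unstimulated KD libraries, 43.2 and 45.3 in stimulated control libraries and 35.1 and 38.2 in stimulated KD libraries. On the log2 scale the unstimulated values were 6.10 and 5.38 in control against 3.92 and 3.93 in KD libraries, and the GC and length correction brought them closer, to 5.61 and 5.18 against 4.36 and 4.48.

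TNF-α in control cells called 3 of the 22 iron and haem genes, all higher, beside 3.1% of all genes called higher, and 1 with no filter on low reads, with read totals or with the replicate block and 0 in a fit of only the 4 libraries. The 3 were SLC25A37, the mitochondrial iron importer mitoferrin (log2 0.61), ACO1, the gene of IRP1 (0.44), and ALAS1, the first enzyme of haem synthesis (0.36). TFRC, at 9.63 and 12.8 FPKM without and 13.7 and 12.8 FPKM with TNF-α, was not called (log2 0.24, limma, adjusted p = 0.37), nor was NCOA4 (0.14) or SLC40A1 (-0.25, adjusted p = 0.241). In KD cells TNF-α called 10 of 22 higher and 6 lower, beside 62.5% of all genes called and 31.1% called higher, among them HMOX2 (1.23), BLVRB (1.23), TFRC (-0.50) and SLC40A1 (-1.05). With libraries scaled to read totals that split was 4 higher and 8 lower, beside 3309 higher and 7240 lower of all 16528 genes.

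**Figure D4:**
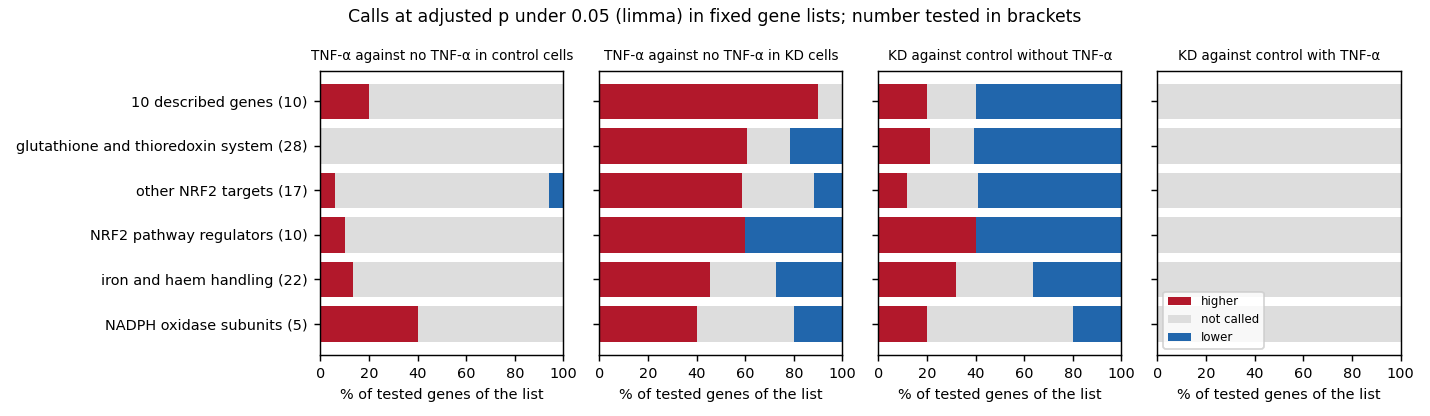
Share of the tested genes of each list (horizontal axes, per cent) called higher (red), lower (blue) or not called (grey) at an adjusted p under 0.05 in 4 comparisons, with the number tested in brackets. In control cells TNF-α calls 2 of the 10 described genes and 0 of 28 in the glutathione and thioredoxin system, beside 4.24% of all genes. With TNF-α 0 genes of the lists are called between KD and control cells, beside 0.115% of all genes.

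The genes whose pattern lay nearest to a member were sought among 4328 genes with a mean of at least 10 FPKM, by the root mean square difference of log2(FPKM + 1), centred on each gene's own mean, over the 8 libraries. For SOD2 they included ZNF697 at 0.193 and ETS1, a transcription factor, at 0.207, beside an SD of 0.948 for SOD2 itself. HMOX1 had closer neighbours, TMEM109 at 0.0380, CYB5R3 at 0.0427 and B4GALT3 at 0.0430, beside an SD of 0.434. Nearest to FTH1 lay PA2G4 at 0.0374, PRDX6, a peroxiredoxin, at 0.0419 and TRAPPC3 at 0.0453, beside an SD of 0.367.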

How the data were processed

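The authors deposited FPKM values for 58735 genes in each of 8 libraries, 4 groups of 2. The submitters' processing notes name CASAVA 1.8, fastp, HISAT2 2.0.5, featureCounts 1.5.0-p3, DESeq2 1.20.0 and GRCh38, and the study's methods name edgeR. Multiplied by gene length and divided by 1 constant per library, 100% of the values gave whole reads (tolerance 0.05), which fixed the unit and showed that median-of-ratios sizes had been used. Identifiers and exon lengths match GENCODE 29 for all 58735 genes.

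From these values log2(FPKM + 1) was tested with limma 3.58.1 in R 4.3.3, with a mean per group over all 8 libraries (4 residual degrees of freedom), a variance trend on mean expression and Benjamini-Hochberg adjustment over 16528 genes. The filter asked for 10 reads, at median depth, in 2 libraries or more and for 15 over all libraries. Fold changes on this scale understate those of low genes. The deposited unit is FPKM, so a count test was not the main test, and edgeR and DESeq2 were not run. A voom fit of the recovered reads, an alternative, called 4963 genes higher and 4982 lower between unstimulated KD and control cells. The fits were tested on simulated data. SOD2 was followed by the identifier with more reads.

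The members and lists were chosen with earlier results of these data known. All 10 members are named. From each list, up to 3 rises and 3 falls of the largest size among called genes are named, with NFE2L2, KEAP1, BACH1, TFRC, NCOA4 and SLC40A1 in any case, and for SOD2, HMOX1 and FTH1 the 3 nearest genes. Some genes that this rule picks are not reported here. Alternatives covered pseudocount (0.1), filters, scaling, a GC and length correction (splines of 5 degrees of freedom), the libraries fitted and the replicate number. After the data were seen, fits without the unstimulated KD libraries and with crossed replicate numbers were added.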

Additional observations from a re-analysis of the deposited data

Results flagged for a closer look

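The effect of TNF-α differed between KD and control cells by the interaction test for 7 of the 10 genes. Of all genes tested, 46.1% were called in this test, 23.8% higher and 22.3% lower. The interaction is given here as the log2 effect in KD cells minus that in control cells. It was 0.66 for SOD1, 1.01 for HMOX1, 0.85 for NQO1, 0.76 for FTH1, 1.16 for FTL, 1.51 for GPX1 and -0.44 for SOD2. In the first 6, the level in stimulated KD cells was close to that of control cells and the level in unstimulated KD cells was the lowest of the 4 groups. For SOD2 both cell types rose, by 1.97 in control and 1.53 in KD cells. After the GC and length correction the SOD2 interaction was 0.21 and not called (limma, adjusted p = 0.165). All 7 values rest on the 2 unstimulated KD libraries, whose mitochondrial share, GC content and number of genes with a read lie apart from those of the other 6 libraries, and the part of these in the differences was not tested. Groups of 2 libraries allow no test for a single library far from the rest.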

How the results depend on the processing

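Of the alternative counts of called members, 70 stayed within 1.5 times the value reported and 17 did not. For TNF-α in control cells 1 member, SOD2, was called in place of 2 with no filter on low reads, with only the 4 libraries compared, with read totals and with the unstimulated KD libraries left out, and between 1 and 4 with 1 library left out. For the interaction the fits without 1 library called between 3 and 8 members in place of 7, the 6 fits with 3 or 4 calls being those without a KD or a stimulated control library.

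Some member values changed sign, and the cause was not tested. With the GC and length correction, KD against control without TNF-α gave -0.33 for SOD2, -0.34 for GCLM and 0.057 for SRXN1, and the interaction gave 0.21 for SOD2, 0.56 for GCLM and 0.035 for TXNRD1. With read totals, TNF-α gave -0.048 for HMOX1 in control cells, and -0.26 for GCLM and -0.032 for TXNRD1 in KD cells. With upper-quartile factors, HMOX1 was at -0.0093 in control cells with TNF-α, and the interaction was 0.14 for GCLM and 0.033 for TXNRD1. Leaving out 1 library moved the TNF-α effect in control cells from -0.39 to 0.035 for SOD1, -0.075 to 0.13 for HMOX1, -0.18 to 0.14 for FTH1, -0.32 to 0.047 for FTL and -0.18 to 0.36 for GPX1. In KD cells GCLM ran from -0.0017 to 0.20. The KD effect with TNF-α ran from -0.096 to 0.31 for SRXN1, -0.077 to 0.030 for FTH1 and -0.034 to 0.12 for GPX1, and the GCLM interaction from -0.19 to 0.0093.

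Scaling moved the whole table. Of genes called between unstimulated KD and control cells, 49.7% were higher, against 65.3% with read totals and 37.8% with upper quartiles. For TNF-α in KD cells these shares were 49.8, 31.4 and 60.1%, for the interaction 51.7, 32.9 and 64.9%, and for TNF-α in control cells 73.0, 60.3 and 70.8%. Read totals moved the median of all genes to -0.19 for TNF-α in KD cells and to -0.14 for the interaction.

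As a replicate block, the number in the labels left the counts of members called at 8, 0, 2, 9 and 7 in the 5 comparisons. Deviations of same-numbered libraries correlated between -0.191 and 0.350, so the numbers were not taken to pair them. With crossed numbers, TNF-α in control cells called 2 members. With 2 libraries a group, differences of the size of the gap between the unstimulated control libraries could not be resolved.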
